A study of Mus musculus and Rattus norvegicus with 14 samples.

Results

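Hearts of mice given LQ-40 were compared with Sham hearts across all measured genes, to describe what differed from Sham hearts in the LQ-40 group. The members were the 3 libraries labelled LQ-40 and the 3 labelled Sham, 6 of the 14 libraries of the series, chosen by their labels alone. Both groups are mouse heart tissue, and messenger RNA was sequenced. LQ-40 is the code name of a compound whose effect on scarring of heart muscle the study set out to assess, beside a second compound, SQ-3, and a group labelled Model. The labels give no strain, age, sex, dose, treatment time or model procedure. They do not say whether the LQ-40 hearts had undergone that procedure, or whether each library is a different mouse. The p-values therefore reflect only the scatter among libraries within the groups, pooled over all 12 mouse libraries, and that scatter may be technical. The 3 Model libraries are set beside the others where a level needs a second reference.

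Scarring of the heart is driven by fibroblasts, which turn into matrix-secreting cells under signals such as TGF-beta and lay down collagen, fibronectin and elastin. Macrophages enter or expand in the tissue and secrete complement and cytokines, while the muscle cells often lower the genes of contraction and of mitochondrial fuel use. Type I and type II interferons act on many cell types and switch on antiviral genes, antigen presentation genes and guanosine triphosphatases (GTPases) that act on the membranes around intracellular microbes.

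The Sham libraries held 15034030, 13897535 and 14025639 reads assigned to genes, and the LQ-40 libraries 13672284, 15104490 and 14121808. Reads from mitochondrial DNA made up 19.9 ± 4.7% of the total in Sham and 15.9 ± 5.1% in LQ-40 hearts (SD, n = 3 each). Values are FPKM (reads per gene length and library size) rescaled between libraries, called scaled FPKM. A gene was called where the limma adjusted p was under 0.05, and fold changes refer to log2(scaled FPKM + 1). The labelled tissue was checked by its own genes. The 22 contractile genes summed to 26437 to 29288 scaled FPKM in Sham and 11080 to 21582 in LQ-40 hearts, so heart muscle RNA was abundant in each.

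Of 12996 genes tested, 1277 (9.83%) were higher and 769 (5.92%) lower in LQ-40 than in Sham hearts. At least 2-fold differences were found in 440 of the higher and 164 of the lower genes. Of the 2046 called genes, 1993 had LQ-40 and Sham libraries that did not overlap, and some genes below were chosen for this. A lack of overlap in a called gene is therefore not separate support for its call. The median difference over all tested genes was 0.02 on the log2 scale, with an interquartile range of -0.23 to 0.27. The 3 LQ-40 libraries did not share one distance from Sham. On the first principal component of the 12 mouse libraries, which held 53.4% of the variance, Sham libraries lay at -52.5, -46.3 and -43.7, and LQ-40 libraries 1, 2 and 3 at -20.6, 16 and 34.3. Model libraries lay between 26.3 and 36.2, so LQ-40 library 3 was within their range and LQ-40 library 1 stood between the groups. Among the called higher genes, LQ-40 1 was the library nearest the Sham mean in 1152 (90.2%), and among the called lower genes in 574 (74.6%). In the same tests Model hearts had 2719 genes higher (20.9%) and 2329 lower (17.9%) than Sham hearts. Both comparisons use the Sham libraries, so their counts are not independent.

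The count of calls depended on single libraries. With 1 library left out, the genes called higher and lower were 344 and 174 without Sham 1, 421 and 221 without Sham 2, and 746 and 396 without Sham 3. They were 2364 and 2005 without LQ-40 1, 269 and 143 without LQ-40 2, and 352 and 171 without LQ-40 3. A fit of the Sham and LQ-40 libraries alone called 137 higher and 93 lower. The main fit pooled the scatter of all 12 mouse libraries. The median SD per gene on the log2 scale was 0.159 in Sham, 0.198 in LQ-40, 0.122 in Model and 0.163 in SQ-3 libraries. The gene groups below are therefore given with the value in each library and with their counts under these fits. List counts of the main fit stand against 9.83% higher and 5.92% lower over all genes tested.

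**Figure D1:**
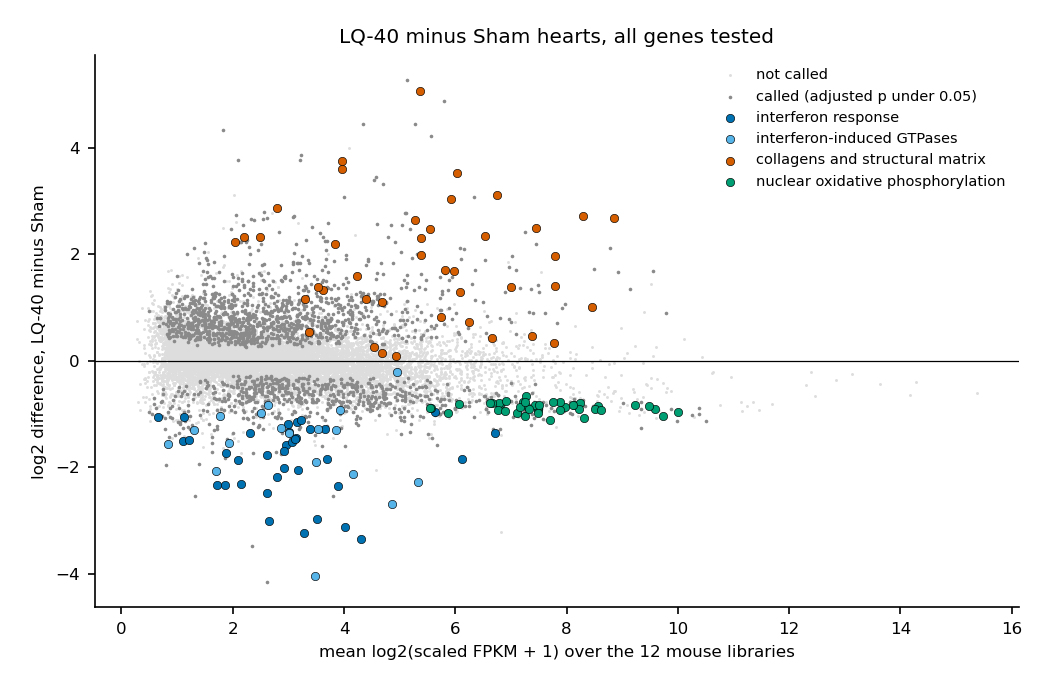
Log2 difference of LQ-40 minus Sham (vertical axis) against the mean log2(scaled FPKM + 1) over the 12 mouse libraries (horizontal axis), 1 point per gene tested. Coloured points mark the members of 4 lists: interferon response genes lie below 0 from -3.35 to -0.96, matrix genes above 0 from 0.09 to 5.06, and oxidative phosphorylation genes in a narrow band from -1.11 to -0.66.

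As a list, interferon response genes were lower to a similar extent in all 3 LQ-40 libraries. Of 36 tested genes of the interferon response list, 34 fell and none rose, where 5.92% of all genes fell. Their median difference was -1.72 on the log2 scale. In 35 of the 36 the LQ-40 and Sham libraries did not overlap, against 33.2% of all genes. The medians over the list were -1.71, -1.79 and -1.40 in LQ-40 libraries 1, 2 and 3, so the library that lay nearest Sham elsewhere was as low here as the others. Ifi27 and Ifi27l2a were the 2 members that were not called, at 55.3, 31.9 and 44.3 against 117, 35.8 and 140 scaled FPKM for Ifi27 (adjusted p = 0.123) and 97, 76.6 and 110 against 298, 142 and 326 for Ifi27l2a (adjusted p = 0.0606). Sham library 2 was the low Sham library for both.

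Many interferon-induced genes carry the interferon-stimulated response element near their start, and the windows below show that element in members with large differences. Each is 120 bases of the RefSeq promoter table (GRCm38.p6, the same assembly as mm10), lies before the gene model of the deposited table and reads 5′ to 3′ on the gene's strand. Capitals mark matches of the element's core GAAANNGAA on either strand.
Isg15 (chr4:156200819-156200938, - strand): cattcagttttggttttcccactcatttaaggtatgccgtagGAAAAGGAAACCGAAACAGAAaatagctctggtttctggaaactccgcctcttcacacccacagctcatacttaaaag
Ifit1 (chr19:34640751-34640870, + strand): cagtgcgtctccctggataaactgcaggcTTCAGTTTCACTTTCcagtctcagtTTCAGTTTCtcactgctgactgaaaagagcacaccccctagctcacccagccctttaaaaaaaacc
Ifit3 (chr19:34583354-34583473, + strand): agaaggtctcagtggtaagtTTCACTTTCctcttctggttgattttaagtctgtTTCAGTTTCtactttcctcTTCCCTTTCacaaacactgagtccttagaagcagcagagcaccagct
Rsad2 (chr12:26456453-26456572, - strand): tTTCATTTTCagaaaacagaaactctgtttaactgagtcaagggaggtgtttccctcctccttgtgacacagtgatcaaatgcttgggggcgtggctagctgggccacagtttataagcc
Igtp (chr11:58199436-58199555, + strand): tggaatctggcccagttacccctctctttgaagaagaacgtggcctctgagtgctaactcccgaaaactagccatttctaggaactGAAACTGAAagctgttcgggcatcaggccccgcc
In the 250 bases before the start, 12 of the 25 interferon response genes with a window held the core (48.0%), as did 10 of 11 interferon-induced GTPase genes (90.9%). It occurred in 709 of 9319 tested genes with a window (7.6%) and in 2 of 29 structural matrix genes (6.9%). Of 9 such windows examined, 4 held no match, those of Irf7, Ifit2, Oasl1 and Uba7, and the 5 with a match are printed. The Isg15, Ifit1 and Ifit3 windows hold 3 matches each, while the Rsad2 and Igtp windows hold 1. For comparison, the E-box CACGTG occurred in 0 of the 25 interferon response genes and in 923 of 9319 tested genes (9.9%). A match describes the letters in this window and is not evidence of binding.

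Isg15 encodes a ubiquitin-like protein that is attached to other proteins after interferon (chromosome 4, 156199424 to 156200818, mm10). It was at 110, 93.8 and 128 scaled FPKM in Sham libraries 1, 2 and 3 and at 8.68, 7.42 and 14.6 in the LQ-40 libraries. The groups were far apart: 111 ± 17.3 against 10.2 ± 3.86 (SD, n = 3 each), 10.2-fold lower in LQ-40 (log2 -3.35, SE 0.33, limma adjusted p = 0.000828). Its partner genes followed. Uba7, the enzyme that activates the Isg15 protein, was at 14.5, 17.9 and 20 in Sham and 5.69, 6.9 and 6.21 in LQ-40 hearts (2.53-fold lower, adjusted p = 0.000559). Usp18, the protease that removes Isg15 from proteins and dampens interferon receptor signalling, was at 28.8, 29.9 and 45.2 in Sham and 3.6, 2.89 and 3.48 in LQ-40 hearts (8.09-fold lower, SE 0.27 on the log2 scale, adjusted p = 0.000559). For all of them the highest LQ-40 library stayed well under the lowest Sham library.

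Antiviral effectors and the transcription factor that amplifies the response were lower as well. Ifit1, which binds foreign RNA ends (chromosome 19, 34640871 to 34650009), was at 46, 70.8 and 68.3 in Sham and 5.17, 4.1 and 7.93 in LQ-40 hearts (9.40-fold lower, adjusted p = 0.000828). Ifit3, of the same family, fell 8.67-fold (adjusted p = 0.00921), and part of its reads could belong to its near-identical copy Ifit3b. Rsad2, which encodes the antiviral enzyme viperin (chromosome 12, 26442746 to 26456452), was at 20.1, 29.3 and 28.6 in Sham and 4.27, 2.91 and 4.14 in LQ-40 hearts (5.63-fold lower, adjusted p = 0.000559). Irf7, a factor that drives interferon genes, was at 47.1, 56.1 and 92.3 in Sham and 6.52, 6.24 and 8.82 in LQ-40 hearts (7.83-fold lower, adjusted p = 0.000878). It overlaps the gene Phrf1. No LQ-40 library reached a Sham library for any of these genes, as in most called genes.

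The same list was low in the Model and SQ-3 hearts too. Isg15 was at 11.8, 10.9 and 5.27 and Usp18 at 2.83, 2.11 and 0.924 in Model hearts. Over the list, library medians were -1.77, -1.95 and -2.64 in Model and -1.78, -1.91 and -2.18 in SQ-3 hearts, on the same scale and against the same Sham libraries. None of the 36 members was called between LQ-40 and Model hearts. Sham was thus the group with high levels on this list. With 1 library left out, 34, 35 and 34 members were called lower without Sham 1, 2 and 3, and 34, 32 and 34 without LQ-40 1, 2 and 3. The fit of the Sham and LQ-40 libraries alone called 32.

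**Figure D2:**
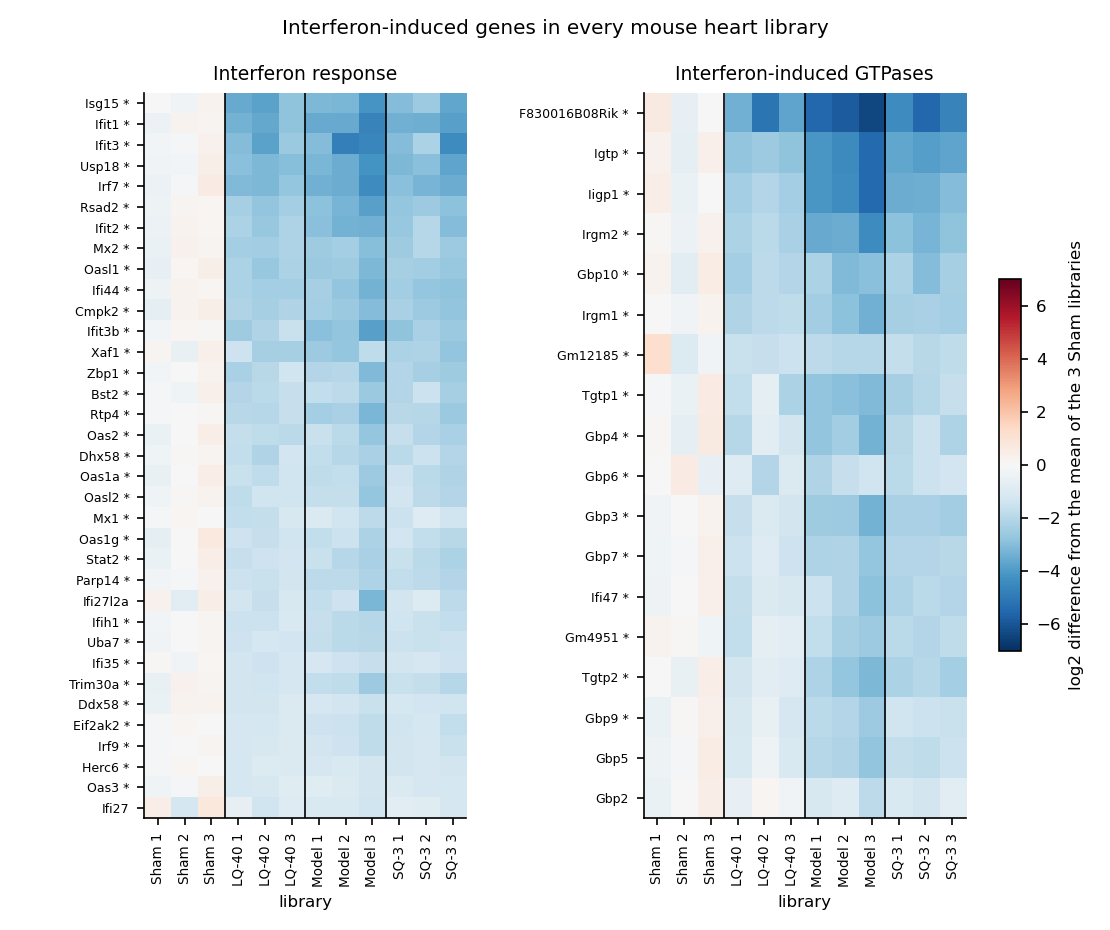
Log2 difference of each library from the mean of the 3 Sham libraries (colour, blue lower and red higher) for 35 of the 36 tested members of the interferon response list (left) and the 18 interferon-induced GTPases (right), in rows ordered by LQ-40 minus Sham, in the 12 mouse libraries (columns). An asterisk marks genes called between LQ-40 and Sham. The left panel is similarly blue in LQ-40, Model and SQ-3 libraries, and the right panel is paler in the LQ-40 than in the Model libraries.

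The interferon-induced GTPases, most of which answer type II interferon, were lower in LQ-40 than in Sham hearts, but less low than in Model hearts. Of 18 tested members 16 fell and none rose, with a median of -1.34 on the log2 scale. Library medians were -1.70, -1.02 and -1.38 in LQ-40 and -2.18, -2.50 and -3.03 in Model hearts, so the ranges of the groups did not overlap. Between LQ-40 and Model hearts, 24 genes (0.185%) were higher and 63 (0.485%) lower in LQ-40. Of the 18 GTPases, 6 were among the 24. Near-identical copies in this family (Gbp6 and Gbp10, Tgtp1 and Tgtp2) make single members uncertain.

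Igtp, an immunity-related GTPase (chromosome 11, 58199556 to 58207591), was at 242, 125 and 256 in Sham, 28.3, 33.7 and 27.2 in LQ-40 and 10.8, 7.91 and 3.53 in Model hearts. It was 6.5-fold lower in LQ-40 than in Sham (SE 0.34 on the log2 scale, adjusted p = 0.00225) and 3.92-fold higher than in Model hearts (adjusted p = 0.0254). The 3 groups formed separate steps. Irgm2 (chromosome 11, 58199618 to 58222782) followed the same steps at 88.2, 61.9 and 103, then 16.9, 21.5 and 16.6, then 6.35, 6.37 and 2.92, 4.34-fold lower than in Sham (adjusted p = 0.00204) and 3.22-fold higher than in Model hearts (adjusted p = 0.015). The gene models of Igtp and Irgm2 overlap, so their reads cannot be assigned with certainty. Irgm1, at 38.5, 31.4 and 43.9 in Sham and 7.96, 9.94 and 10.3 in LQ-40 hearts, overlaps neither and was 3.73-fold lower (adjusted p = 0.000972). Its difference from Model hearts missed the threshold (log2 0.99, adjusted p = 0.0618).

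Guanylate-binding proteins covered a wider range. Gbp2 was at 34.4, 47.1 and 65.9 in Sham and 31.4, 52.8 and 39.9 in LQ-40 hearts, with overlapping libraries (adjusted p = 0.608), and its log2 difference of -0.22 ran from -0.45 to 0.01 with 1 library left out, turning sign without Sham 3. Gbp5 was at 10, 11.8 and 19.3 in Sham and 5.75, 10 and 5.78 in LQ-40 hearts (adjusted p = 0.0551), and was higher than in Model hearts (2.5, 2.24 and 1.09, log2 1.47, adjusted p = 0.0345). The number of GTPases called lower was 11, 12 and 11 without Sham 1, 2 and 3, and 14, 10 and 8 without LQ-40 1, 2 and 3. It was 8 in the fit of both groups alone and 8 with no filter on low values.

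Genes of MHC class I presentation, which carry peptides to the cell surface, were split. Of 20 tested members 11 fell and none rose (median -0.66). Nlrc5, the factor that switches on class I genes, was at 6.52, 5.6 and 8.51 in Sham and 1.61, 3.13 and 2.46 in LQ-40 hearts (2.33-fold lower, adjusted p = 0.0134). Tap2, which pumps peptides into the endoplasmic reticulum, was at 17.6, 15.3 and 20.4 against 8.25, 11.2 and 10.5 (1.71-fold lower, adjusted p = 0.00861), a call lost in the fit of both groups alone (adjusted p = 0.0671). The abundant light chain gene B2m overlapped between Sham (1809, 942 and 1105) and LQ-40 hearts (705, 697 and 1339, adjusted p = 0.278). H2-K1, a heavy chain gene, was at 71, 28.7 and 72.4 in Sham and 104, 58.5 and 196 in LQ-40 hearts (adjusted p = 0.117). H2-D1, another heavy chain gene, was at 392, 202 and 432 against 150, 288 and 283 (adjusted p = 0.368). H2 genes are near-identical copies of each other, so the split of reads between them is uncertain. The 11 calls became 3, 7 and 4 without Sham 1, 2 and 3, and 10, 5 and 4 without LQ-40 1, 2 and 3. They were 2 in the fit of both groups alone and 4 with no filter.

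Genes that build or modify extracellular matrix were higher in LQ-40 hearts. Of 41 tested collagens and structural matrix genes, 33 rose and none fell, with a median of 1.71 on the log2 scale, where 9.83% of all genes rose. The medians by library were 0.71, 2.00 and 2.40 in LQ-40 1, 2 and 3, and 2.18 to 2.56 in Model hearts. LQ-40 1 was the nearest library to Sham for 39 of the 41 members. In whole heart tissue, more cells of a type and more RNA per cell cannot be told apart.

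Fn1 encodes fibronectin, a glycoprotein that assembles the early matrix (chromosome 1, 71585520 to 71653200). It was at 8.2, 9.62 and 13 scaled FPKM in Sham and 56, 157 and 232 in LQ-40 hearts, 10.3 ± 2.46 against 148 ± 88.4 (SD, n = 3 each) and 11.5-fold higher (log2 3.53, SE 0.40, adjusted p = 0.00121). Even the lowest LQ-40 library lay above every Sham library, while the LQ-40 libraries differed among themselves more than the Sham libraries did. Eln, the elastin gene (chromosome 5, 134702593 to 134747323), was at 7.73, 7.41 and 11.7 in Sham, 57.7, 101 and 85.3 in LQ-40 and 195, 181 and 183 in Model hearts, 8.22-fold higher in LQ-40 than in Sham (adjusted p = 0.000828). Its difference from Model hearts was -1.22 on the log2 scale and not called (adjusted p = 0.112). Fbln1, a fibulin that binds elastin and fibronectin, was at 19.6, 24.5 and 23.2 against 59.5, 167 and 166 (5.11-fold higher, adjusted p = 0.00427).

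The fibrillar collagens were more graded. Col1a1, a chain of type I collagen (chromosome 11, 94936224 to 94953042), was at 30.8, 100 and 107 in Sham and 184, 574 and 925 in LQ-40 hearts, 79.3 ± 42.2 against 561 ± 370 (6.57-fold higher, SE 0.57 on the log2 scale, adjusted p = 0.0158). This call was lost in the fit of both groups alone (adjusted p = 0.0917), without Sham 1 (0.055), without LQ-40 2 (0.0636) and without LQ-40 3 (0.0574). Col3a1, of type III collagen, was at 60.1, 133 and 151 against 327, 721 and 1419 (6.47-fold higher, adjusted p = 0.00804; 0.0706 in the fit of both groups alone). For both, LQ-40 1 was the lowest LQ-40 library and still above every Sham library.

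Enzymes and inhibitors that shape the matrix rose with it, 20 of 42 tested with none lower (median 0.82). Timp2, an inhibitor of matrix metalloproteinases, was at 53.9, 53.1 and 55.6 in Sham and 130, 210 and 212 in LQ-40 hearts (3.27-fold higher, SE 0.18 on the log2 scale, adjusted p = 0.000972). Its Sham libraries were nearly level. Loxl1, which crosslinks elastin, was at 14.8, 17.5 and 22.6 against 43.1, 103 and 119 (4.31-fold higher, adjusted p = 0.00512). Mmp14, a membrane-bound collagenase, was at 2.87, 3.24 and 4.54 against 8.92, 16.3 and 25.3 (3.67-fold higher, adjusted p = 0.00458). Lox, which crosslinks collagen and elastin, was at 2.56, 2.18 and 2.74 against 8.84, 55.8 and 98.5 (11-fold higher, adjusted p = 0.0104; 0.0729 in the fit of both groups alone). LQ-40 1 was again the low library. Without 1 library, 14, 19 and 23 structural matrix genes were called without Sham 1, 2 and 3, and 34, 8 and 14 without LQ-40 1, 2 and 3. For the enzymes and inhibitors the counts were 9, 10 and 13, then 27, 9 and 10, with 2 called lower without LQ-40 1. The fit of both groups alone called 4 and 3, and that with no filter 18 and 10.

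Markers of activated fibroblasts showed a step between LQ-40 1 and the other LQ-40 libraries. Of 17 tested, 12 rose and none fell (median 2.23), and library medians were 0.55, 2.85 and 2.61. This list shares members with the matrix lists above, such as Lox, so their counts are not independent. Summed levels were 202, 202 and 208 scaled FPKM in Sham and 262, 808 and 1117 in LQ-40 hearts. Comp, a collagen-binding protein of cartilage and scar, was at 0.814, 1.1 and 0.925 in Sham and 8.09, 146 and 203 in LQ-40 hearts (33.4-fold higher, SE 0.96 on the log2 scale, adjusted p = 0.0112; 0.0688 in the fit of both groups alone and 0.0501 without LQ-40 2). Postn, a matrix protein of activated fibroblasts, was at 8.92, 17 and 13.7 against 37.3, 147 and 273 (8.40-fold higher, adjusted p = 0.0111; 0.0724 in the fit of both groups alone). Acta2, the smooth muscle actin that marks myofibroblasts but also arterial muscle, was at 124, 115 and 131 in Sham and 116, 112 and 125 in LQ-40 hearts (adjusted p = 0.797), and the sign of its log2 difference of -0.07 turned under quantile normalization. Calls in this list were 4, 5 and 6 without Sham 1, 2 and 3, and 15, 2 and 4 without LQ-40 1, 2 and 3. They were 0 in the fit of both groups alone and 6 with no filter. On this list 1 gene was called lower in the fit without LQ-40 1, by limma-voom and with the replicate block.

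Resident fibroblast markers moved less, with 7 of 16 higher and 1 lower (median 0.42). The lower one was Ly6a, a surface marker of fibroblasts and endothelial cells that interferon also induces, at 344, 318 and 354 in Sham, 147, 138 and 157 in LQ-40 and 95.4, 139 and 82.9 in Model hearts (2.29-fold lower than in Sham, adjusted p = 0.00464). All 3 LQ-40 libraries lay within a narrow range. The higher calls were 3, 5 and 6 without Sham 1, 2 and 3, 7, 1 and 3 without LQ-40 1, 2 and 3, and 1 in the fit of both groups alone.

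In the TGF-beta pathway 11 of 26 tested genes rose and none fell (median 0.84), where 9.83% of all genes rose. The library medians were 0.25, 0.93 and 1.15 in LQ-40 1, 2 and 3. Tgfb1, the main ligand of injured tissue, was at 5.16, 5.68 and 8.55 in Sham and 8.16, 9.71 and 11.3 in LQ-40 hearts and was not called (adjusted p = 0.0568). Tgfb3, another ligand, was at 5.96, 6.8 and 6.95 against 13.1, 34.9 and 37.8 (3.57-fold higher, adjusted p = 0.00843; 0.0626 in the fit of both groups alone). The pathway target Ctgf was level with Sham in LQ-40 1 and high in the other LQ-40 libraries, at 41.2, 40.9 and 31.2 against 42.1, 246 and 256 (adjusted p = 0.0815). The 11 calls became 2, 8 and 10 without Sham 1, 2 and 3, 20, 1 and 3 without LQ-40 1, 2 and 3, 0 in the fit of both groups alone and 7 with no filter.

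Of 22 tested Wnt pathway genes and secreted inhibitors, 11 rose and none fell (median 0.72), where 9.83% of all genes rose. Sfrp2, a secreted Wnt modulator of fibroblasts (chromosome 3, 83766321 to 83774316), had the largest difference of all tested genes. It was at 0.506, 2.03 and 1.89 in Sham and 24.6, 151 and 194 in LQ-40 hearts (38.5-fold higher, log2 5.27, SE 0.64, adjusted p = 0.00192). Wisp2, a secreted matricellular protein, was at 3.76, 4.4 and 4.28 against 28.4, 156 and 189 (18.7-fold higher, adjusted p = 0.00427). LQ-40 2 and 3 lay, for both genes, above the highest Model library, which was at 110 for Sfrp2 and 141 for Wisp2, while LQ-40 1 lay below all Model libraries. Neither was called against Model hearts (adjusted p = 0.973 and 0.993). Angptl7, a secreted angiopoietin-like protein outside these lists, was similar at 7.11, 3.61 and 1.67 against 29, 358 and 242 (29.7-fold higher, adjusted p = 0.0104; 0.0521 in the fit of both groups alone), and its gene overlaps Mtor. The Wnt list held 8, 8 and 9 calls without Sham 1, 2 and 3, 14, 7 and 7 without LQ-40 1, 2 and 3, and 2 in the fit of both groups alone.

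**Figure D3:**
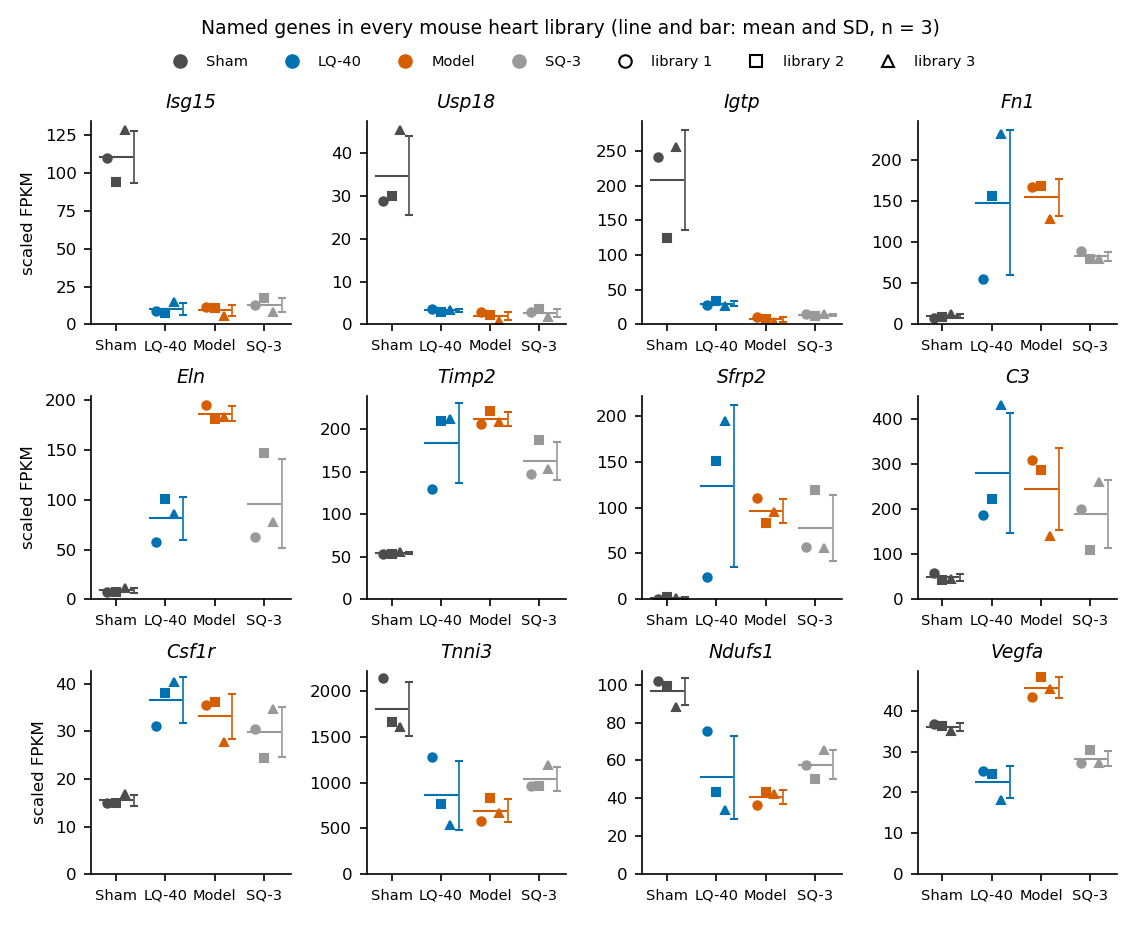
Scaled FPKM (vertical axis, from 0) of 12 genes in each mouse heart library, by group (horizontal axis) and library number (symbol). Lines are group means and bars are SDs of 3 libraries. Isg15, Usp18 and Igtp are low in every LQ-40 library, Fn1, Sfrp2, Tnni3 and Ndufs1 are spread across the LQ-40 libraries, and Vegfa is lower in the LQ-40 libraries than in Sham and Model.

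Macrophage genes were higher in LQ-40 hearts. Of 29 tested markers 16 rose and none fell (median 1.07), where 9.83% of all genes rose. Library medians were 0.60, 0.94 and 1.54 in LQ-40 and 0.75 to 1.12 in Model hearts, so LQ-40 3 was the highest of these libraries. Csf1r, the receptor that macrophages need to survive, was at 14.9, 14.9 and 16.9 in Sham and 31.1, 38.1 and 40.4 in LQ-40 hearts (2.26-fold higher, SE 0.16 on the log2 scale, adjusted p = 0.00299). Its LQ-40 libraries lay close together and above every Sham library. Apoe, a lipid carrier made by tissue macrophages, was at 189, 126 and 155 against 365, 559 and 658 (3.29-fold higher, adjusted p = 0.00664). Gpnmb, a marker of lipid-laden and scar-associated macrophages, was at 0.155, 0.114 and 0.253 against 1.81, 4.39 and 5.28 (3.89-fold higher, adjusted p = 0.00588). Fcgr2b, an inhibitory antibody receptor, was at 1.68, 0.757 and 1.6 against 4, 5 and 8.18 (2.82-fold higher, adjusted p = 0.00748). All of these macrophage genes had LQ-40 libraries above every Sham library, a lack of overlap shared by most called genes. The complement starter genes C1qa (adjusted p = 0.0732) and C1qb (adjusted p = 0.0551), also macrophage products, were not called. Macrophage calls were 10, 10 and 14 without Sham 1, 2 and 3, 23, 7 and 9 without LQ-40 1, 2 and 3, and 5 in the fit of both groups alone.

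Complement genes, whose products tag and lyse targets, rose in 9 of 16 cases (9.83% of all genes) and fell in 1 (median 1.20). The lower gene was Cd59a, which protects host cells from lysis (log2 -0.54). C3, the central component, was at 57.4, 43.4 and 45.1 in Sham and 186, 222 and 432 in LQ-40 hearts (5.33-fold higher, SE 0.41 on the log2 scale, adjusted p = 0.00724). C7, a part of the membrane attack complex, was at 18.9, 15.8 and 18.1 against 49.3, 41.8 and 45.2 (2.5-fold higher, adjusted p = 0.0036), level across the LQ-40 libraries. C1s1, a protease of the classical pathway, rose 3.11-fold (adjusted p = 0.00707). C4b rose 4.03-fold (adjusted p = 0.00618), with reads that could belong to its copy C4a. Without Sham 1, 2 and 3 the list held 7, 7 and 10 calls, without LQ-40 1, 2 and 3 it held 11, 6 and 7, and the fit of both groups alone called 4.

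Among cytokines, chemokines and their receptors 10 of 39 rose and none fell (median 0.55), where 9.83% of all genes rose. Il33, an alarm cytokine stored in the nuclei of stromal cells, was at 4.59, 3.52 and 3.4 in Sham, 19.1, 24.9 and 45.4 in LQ-40 and 11.7, 25.6 and 9.6 in Model hearts (6.01-fold higher than in Sham, adjusted p = 0.00299). Ccl8, a chemokine that draws monocytes, was at 4.27, 3.34 and 4.3 in Sham, 23, 33.4 and 86 in LQ-40 and 21.6, 27.2 and 8.25 in Model hearts (8.40-fold higher than in Sham, adjusted p = 0.00539). LQ-40 3 was the highest library for both, above every Model library, though neither was called against Model hearts (adjusted p = 0.313 and 0.334). The cytokine list held 3, 3 and 8 higher calls without Sham 1, 2 and 3, 19, 3 and 4 without LQ-40 1, 2 and 3, 3 in the fit of both groups alone, 4 with no filter and 6 with quantile normalization. In the fit without LQ-40 1 it also held 1 lower call. MHC class II genes rose in 2 of 8 cases, with 3, 0 and 0 called without Sham 1, 2 and 3, 6, 1 and 1 without LQ-40 1, 2 and 3, and 0 in the fit of both groups alone or with no filter. The abundant invariant chain gene Cd74 was at 189, 79.8 and 50.8 in Sham and 136, 368 and 511 in LQ-40 hearts (adjusted p = 0.0687).

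Markers of other cell types moved beside these genes. Summed levels of 29 macrophage markers were 645 to 951 scaled FPKM in Sham and 1406 to 2777 in LQ-40 hearts. Those of 7 lymphocyte markers were 11.6 to 26.7 and 118 to 233, with 2 members higher, and those of 6 neutrophil markers 8.68 to 22.9 and 9.38 to 92.3, with 2 members higher and the neutrophil gene Ly6g listed at 0 in Sham and at a mean of 0.295 in LQ-40 hearts. A lymphocyte member called higher was Igkc, an antibody light chain gene named here after its value was seen (log2 4.44, adjusted p = 0.0243). Summed mesothelial markers, from the outer lining of the heart, were 3.18 to 18.6 in Sham and 28.2 to 114 in LQ-40 hearts, with 4 of 10 members higher (9.83% of all genes). Among them Msln was at 4.42, 0.878 and 0.148 against 11.7, 28.8 and 7.76 (6.58-fold higher, adjusted p = 0.025), a call lost in 6 of 14 alternatives, among them without Sham 2 (0.074), without Sham 3 (0.0656), without LQ-40 2 (0.0932), with no filter (0.0662), with limma-voom (0.0581) and in the fit of both groups alone (0.0793). Mesothelial calls were 4, 0 and 2 without Sham 1, 2 and 3, and 3, 0 and 5 without LQ-40 1, 2 and 3. Lymphocyte calls were 0, 0 and 1, then 4, 0 and 0, and neutrophil calls 0, 0 and 1, then 2, 2 and 0. The part of these cells in the matrix and immune results was not tested.

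Endothelial (1 of 19 higher), smooth muscle and pericyte (1 higher and 1 lower of 15), mast cell (0 of 5), adipocyte (0 of 5), erythroid and platelet (0 of 8) and skeletal muscle genes (0 of 3) held few calls. Without LQ-40 1, endothelial genes had 2 higher and 7 lower. The called endothelial gene was Vwf, the clotting factor carrier, at 6.19, 6.75 and 6.37 in Sham and 12.1, 20.6 and 26.9 in LQ-40 hearts (2.67-fold higher, adjusted p = 0.00748; 0.0511 in the fit of both groups alone). Pdpn, which marks lymphatic endothelium and also activated fibroblasts, was at 3.43, 3.27 and 2.93 against 8.45, 14.1 and 22.6 (3.56-fold higher, adjusted p = 0.0102).

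**Figure D4:**
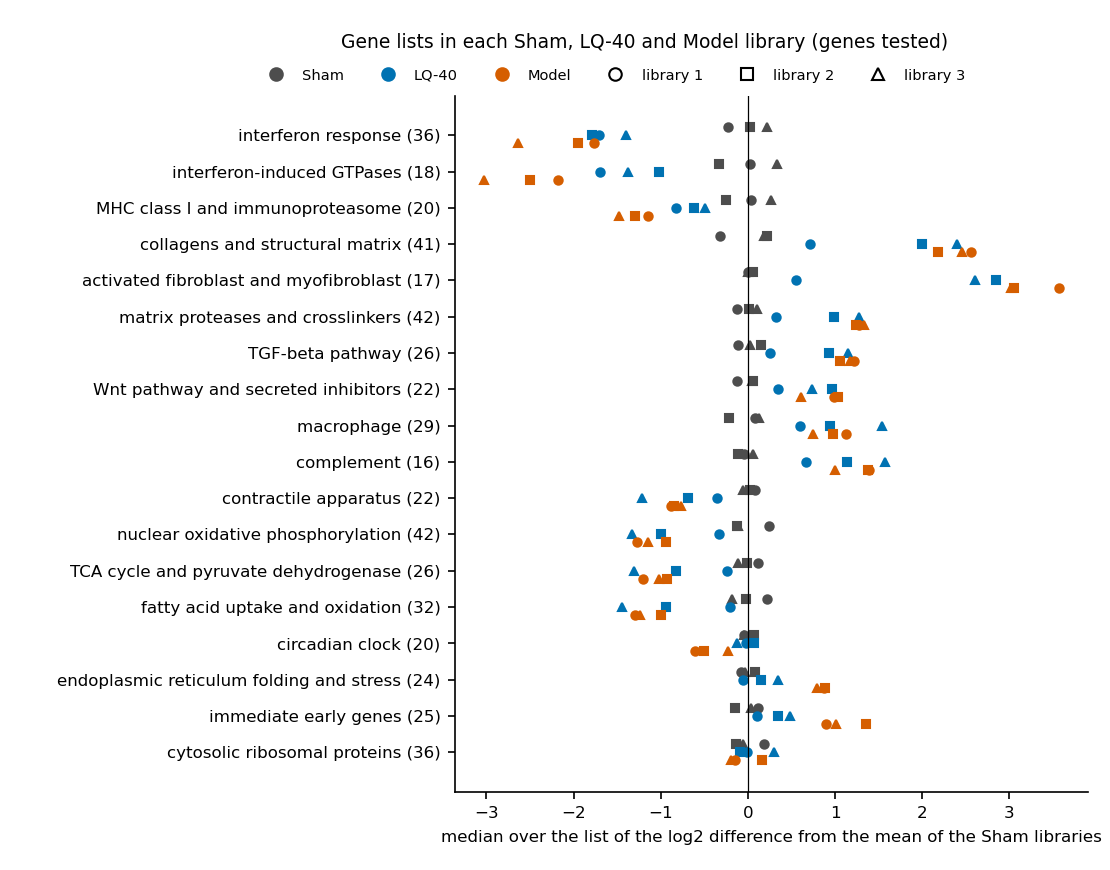
Median over each gene list of the log2 difference from the mean of the Sham libraries (horizontal axis), for the Sham, LQ-40 and Model libraries (colours and symbols), with the number of genes tested in brackets. On the interferon response list LQ-40 libraries lie together (-1.79 to -1.40), on matrix and metabolic lists LQ-40 1 lies nearest Sham, and on clock, endoplasmic reticulum and immediate early lists the LQ-40 libraries lie closer to Sham than the Model libraries do.

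Genes of contraction and of mitochondrial fuel use were lower in LQ-40 hearts, in a graded way. Of 22 tested contractile genes 11 fell and none rose (median -0.75), where 5.92% of all genes fell. The medians were -0.36, -0.69 and -1.21 in LQ-40 1, 2 and 3 and -0.88 to -0.77 in Model hearts. Tnni3, cardiac troponin I, was at 2143, 1663 and 1612 in Sham and 1280, 765 and 543 in LQ-40 hearts (2.21-fold lower, SE 0.29 on the log2 scale, adjusted p = 0.0301). Its gene overlaps Dnaaf3. Beside the replicate block, the call was lost in 7 alternatives, at an adjusted p of 0.121 with no filter, 0.124 in the fit of both groups alone, 0.101, 0.0688 and 0.0547 without Sham 1, 2 and 3, and 0.0994 and 0.105 without LQ-40 2 and 3. Ttn, the giant spring protein of the sarcomere, was at 21.5, 27.1 and 24.1 against 14.9, 17.9 and 10.1 (1.68-fold lower, adjusted p = 0.0246). Its call was lost with no filter (0.0578), in the fit of both groups alone (0.104), without Sham 1, 2 and 3 (0.0535, 0.076 and 0.0538) and without LQ-40 3 (0.0685). Several abundant genes of the muscle cell were low in LQ-40 2 and 3 without passing the test. Myh6, the main heavy chain of the adult mouse heart, was at 3227, 4273 and 3992 against 2912, 2153 and 1205 (adjusted p = 0.0671). Its less abundant fetal counterpart Myh7 did not follow this, at 47.6, 58.3 and 55.4 against 39.3, 45.1 and 55.3 (adjusted p = 0.499). For Myh7, LQ-40 1 was the lowest library and LQ-40 3 lay within the Sham range. Actc1, cardiac actin, was at 7611, 8382 and 6961 against 6268, 5148 and 3482 (adjusted p = 0.102). Atp2a2, the calcium pump of the sarcoplasmic reticulum, was at 2017, 2479 and 2162 against 1836, 1007 and 642 (adjusted p = 0.0634), and 3 of 26 calcium cycling and ion channel genes fell, against 5.92% of all genes. For both genes LQ-40 3 was the lowest of the 6 libraries. Tcap, a cap protein of titin, was at 2305, 1751 and 1665 in Sham, 1473, 887 and 557 in LQ-40 and 225, 305 and 161 in Model hearts. It was not called against Sham (adjusted p = 0.0577) and was higher than in Model hearts (log2 2.01, adjusted p = 0.0258).

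The natriuretic peptide genes, which heart muscle raises under strain, were variable. Nppa was at 245, 201 and 342 in Sham and 266, 1673 and 768 in LQ-40 hearts (adjusted p = 0.211), and Nppb at 124, 99.9 and 173 against 83.3, 267 and 382 (adjusted p = 0.48). LQ-40 1 lay within the Sham range for Nppa and below it for Nppb, while Model libraries were at 1168 to 2907 and 612 to 833. Neither was called between LQ-40 and Model hearts (adjusted p = 0.571 and 0.284). The list of stress and fetal genes had 1 of 15 called higher than in Sham.

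Nuclear genes of oxidative phosphorylation, the respiratory chain and ATP synthase, fell in 25 of 42 cases and rose in none (median -0.87). Every one of the 42 had LQ-40 1 as the library nearest Sham, and library medians were -0.33, -1.0 and -1.33. Ndufs1, a core subunit of complex I (chromosome 1, 63143596 to 63176833), was at 102, 99 and 88.2 in Sham and 75.4, 43.5 and 34.1 in LQ-40 hearts (1.98-fold lower, adjusted p = 0.0249). It overlaps the gene Eef1b2. It lost its call in 6 of 14 alternatives, at 0.0595 with no filter, 0.107 in the fit of both groups alone, 0.0794 and 0.0696 without Sham 1 and 2, and 0.0897 and 0.0861 without LQ-40 2 and 3. Of the 13 tested genes encoded by the mitochondrial genome none was called.

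The tricarboxylic acid cycle fell in 13 of 26 genes and fatty acid uptake and oxidation in 10 of 32, with 1 fatty acid gene higher. Over all genes 5.92% fell. Etfb, which passes electrons from fatty acid oxidation to the respiratory chain, was at 69.3, 62 and 56.1 in Sham and 39.8, 23.4 and 13.8 in LQ-40 hearts (2.58-fold lower, adjusted p = 0.0192; 0.0909 in the fit of both groups alone, 0.0675 and 0.0544 without Sham 1 and 2, and 0.0655 without LQ-40 2). Suclg2, a subunit of succinyl-CoA ligase, was at 41, 30.3 and 30.9 against 24.5, 16 and 13.6 (1.88-fold lower, adjusted p = 0.0197; 0.094 in the fit of both groups alone, 0.0716 without Sham 1, and 0.0749 and 0.0727 without LQ-40 2 and 3). The fatty acid transporter gene Cd36 was at 643, 572 and 488 against 504, 300 and 246 (adjusted p = 0.0687). Branched-chain amino acid and ketone genes fell in 8 of 22 cases.

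These muscle and mitochondrial counts changed with the libraries, the scaling and the filter. Contractile genes called lower numbered 0, 0 and 1 without Sham 1, 2 and 3, and 21, 1 and 0 without LQ-40 1, 2 and 3. Oxidative phosphorylation genes numbered 0, 2 and 5, then 40, 0 and 0, and those of the tricarboxylic acid cycle 0, 1 and 1, then 26, 0 and 0. Fatty acid genes numbered 1, 0 and 4, then 26, 1 and 1, and branched-chain amino acid genes 0, 0 and 3, then 20, 0 and 0. Calcium cycling and ion channel genes numbered 0, 0 and 0, then 20, 0 and 0. The limma fit of both groups alone called none on any of these lists. With all 12 libraries kept, quantile normalization called 3 contractile, 4 oxidative phosphorylation, 1 tricarboxylic acid cycle, 1 fatty acid, 5 branched-chain amino acid and 0 calcium cycling genes. With no filter on low values these counts were 0, 0, 1, 1, 0 and 0. The share of reads from the mitochondrial genome was 21.2, 15.5 and 11.1% in LQ-40 1, 2 and 3, in the order of these genes. It was 23.65, 14.64 and 21.32% in Sham 1, 2 and 3. Sham 2 thus lay below LQ-40 2 in this share, with an oxidative phosphorylation median of -0.12 against -1.0. The part of this share was not tested.

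**Figure D5:**
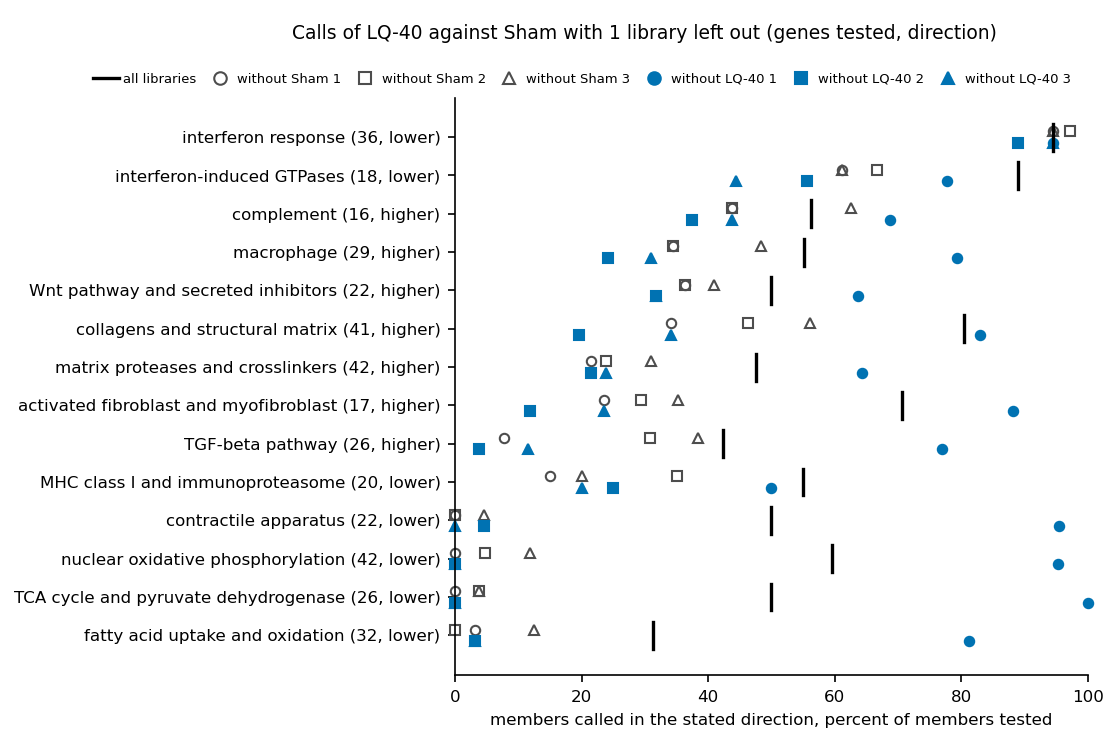
Members called in the stated direction as percent of members tested (horizontal axis), for 14 gene lists (number tested and direction in brackets). The black line is the fit of all libraries and symbols are fits without 1 library. The interferon response list stays between 32 and 35 of 36 members, while oxidative phosphorylation runs from 0 to 40 of 42.

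Several lists were near the background share against Sham (9.83% higher and 5.92% lower), including lists that differed from Model hearts. Heat shock chaperones and p53 targets, given below, held larger shares. Circadian clock genes had 1 of 20 called (lower) against Sham, and against Model 7 higher and 4 lower. Library medians were -0.02, 0.07 and -0.13 in LQ-40, -0.15, -0.25 and -0.24 in SQ-3 and -0.61, -0.5 and -0.23 in Model hearts. Dbp, a clock output factor, was at 36.1, 41.5 and 43 in Sham, 32.8, 40.9 and 31.7 in LQ-40 and 3.77, 6.1 and 2.54 in Model hearts, not called against Sham (log2 -0.19, SE 0.21, adjusted p = 0.543) and 7.28-fold higher than in Model (adjusted p = 0.000189). Nr1d2, a repressor of the clock loop, was at 36.5, 43.9 and 33.9 in Sham, 34.6, 37.4 and 32.6 in LQ-40 and 11.9, 14.2 and 10.9 in Model hearts (adjusted p = 0.525 against Sham and 0.000451 against Model). The labels give no time of collection.

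Chaperones and folding enzymes of the endoplasmic reticulum had 1 of 24 called higher and 2 lower against Sham, and 8 lower against Model hearts. Library medians were -0.06, 0.15 and 0.34 in LQ-40, 0.1, 0.23 and 0.02 in SQ-3 and 0.87, 0.88 and 0.79 in Model hearts. Hspa5, the main chaperone of that compartment, was at 131, 135 and 116 in Sham, 108, 89.8 and 87.5 in LQ-40 and 237, 233 and 223 in Model hearts. Its difference from Sham was small (1.34-fold lower, adjusted p = 0.0479), and was lost in 9 of 14 alternatives with adjusted p up to 0.18, among them without Sham 1, 2 and 3 (0.125, 0.123 and 0.0594) and without LQ-40 2 and 3 (0.146 and 0.156). Its difference from Model hearts was -1.28 on the log2 scale (adjusted p = 0.00144). Heat shock chaperones had 6 of 23 lower than in Sham, where 5.92% of all genes fell, and 1 higher. They had 3 lower than in Model hearts. Hsph1, a cytosolic chaperone, was at 8.23, 11.7 and 7.64 in Sham, 5.94, 6.03 and 5.86 in LQ-40 and 12.8, 13.1 and 14.5 in Model hearts (1.45-fold lower than in Sham, adjusted p = 0.0266; log2 -1.06 against Model, adjusted p = 0.00523). The first call was lost with no filter (0.0608), in the fit of both groups alone (0.111), without Sham 1 and 2 (0.0554 and 0.0545) and without LQ-40 2 and 3 (0.0826 and 0.0879). The 6 lower calls became 0, 1 and 5 without Sham 1, 2 and 3, and 10, 0 and 0 without LQ-40 1, 2 and 3.

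Immediate early genes had 1 of 25 higher than in Sham and 5 lower than in Model hearts. Library medians were 0.1, 0.35 and 0.48 in LQ-40, 0.38, 0.68 and 0.31 in SQ-3 and 0.9, 1.36 and 1.01 in Model hearts. Fosl2, a subunit of the AP-1 factor, was at 3.28, 3.69 and 3.81 in Sham, 5.29, 5.62 and 9.37 in LQ-40 and 12.7, 14.7 and 16.8 in Model hearts, between the other groups (1.65-fold higher than in Sham, adjusted p = 0.0246; log2 -1.05 against Model, adjusted p = 0.0217). The call against Sham was lost with no filter (0.0612), in the fit of both groups alone (0.1), without Sham 1 and 2 (0.0815 and 0.0631) and without LQ-40 2 and 3 (0.0511 and 0.0505). Among p53 targets 4 of 20 rose and none fell, where 9.83% of all genes rose. These targets had 0, 0 and 2 higher without Sham 1, 2 and 3. They had 5 higher and 2 lower without LQ-40 1, and 0 and 0 higher without LQ-40 2 and 3. None of them was called by limma with quantile normalization, with no filter or in the fit of both groups alone. Cdkn2b, a cell cycle inhibitor, was not on the p53 list but was the called member of the cell cycle list. It was at 0.392, 0.374 and 0.338 in Sham and 1.33, 3.08 and 5.99 in LQ-40 hearts (2.96-fold higher, adjusted p = 0.0145; 0.0785 in the fit of both groups alone and 0.0534 without LQ-40 2). Antioxidant targets of NRF2 held 3 higher and 1 lower of 24, with 1, 1 and 2 higher without Sham 1, 2 and 3, 1 higher without LQ-40 2 or 3, and 4 higher and 5 lower without LQ-40 1. G6pdx, which supplies NADPH, was at 4.27, 3.45 and 4.02 against 6.34, 7.16 and 8.19 (1.67-fold higher, adjusted p = 0.00369), a call that held in each of the 14 alternatives. Cytosolic ribosomal protein genes (1 of 36), cell cycle genes (1 of 30) and glycolysis and hypoxia genes (2 higher and 1 lower of 32) also held few calls against Sham. Without LQ-40 1, endoplasmic reticulum and immediate early lists each had 6 genes higher than in Sham, glycolysis and hypoxia had 3 higher and 14 lower, and the clock list 2 higher and 2 lower.

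In 78 of the tested genes (0.6%) all 3 LQ-40 libraries lay outside the range of the 9 other mouse libraries, 47 above and 31 below. Of these, 38 were called against Sham. How many genes arbitrary group labels would place there was not tested. The genes named here and in the next paragraph were chosen by this position among called genes. Their position and p-values are therefore not separate support for a trait of LQ-40 hearts. Mturn, a gene of neural and blood progenitor differentiation, was at 7.32, 8.06 and 8.43 in LQ-40, 5.06, 5.11 and 4.41 in Sham and 6.04, 5.85 and 5.74 in Model hearts (1.53-fold higher than in Sham, SE 0.08 on the log2 scale, adjusted p = 0.00302). Lyl1, a transcription factor of blood and vessel cells, was at 6.52, 7.03 and 8.91 against 3.07, 2.93 and 4.36 in Sham (1.91-fold higher, adjusted p = 0.00707), and it overlaps the gene Nfix. Both calls held in each of the 14 alternatives. Abca9, a lipid transporter of the ABC family, was at 12.6, 14.5 and 14.6 in LQ-40, 7.47, 9.55 and 7.45 in Sham and 11, 11.4 and 11.5 in Model hearts (1.63-fold higher than in Sham, adjusted p = 0.00406; 0.0567 in the fit of both groups alone). Fmo2, a flavin-containing monooxygenase that oxidises foreign compounds, was at 27.6, 54.4 and 23 in LQ-40, 19, 16.3 and 12.4 in Sham and 10.8, 11 and 12.5 in Model hearts. It was 2.02-fold higher than in Sham (adjusted p = 0.0325) and higher than in Model hearts (log2 1.44, adjusted p = 0.0376). The first of these calls was lost with no filter (0.0788), in the fit of both groups alone (0.122), without Sham 1, 2 and 3 (0.0639, 0.076 and 0.0835) and without LQ-40 2 (0.0775).

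Below all others was Vegfa, the main growth factor of blood vessels (chromosome 17, 46016993 to 46032369). It was at 25.2, 24.6 and 18.1 in LQ-40, 36.8, 36.3 and 35 in Sham and 43.4, 48.3 and 45.3 in Model hearts, 1.58-fold lower than in Sham (adjusted p = 0.0115; 0.0857 in the fit of both groups alone) and lower than in Model hearts (log2 -0.99, adjusted p = 0.00572). Abra, an actin-binding activator of muscle gene transcription, was at 8.16, 8.35 and 5.72 in LQ-40, 15.2, 10.8 and 14.7 in Sham and 20.9, 22.3 and 23 in Model hearts. It was 1.73-fold lower than in Sham (adjusted p = 0.0166), a call lost in the fit of both groups alone (0.0808), without Sham 1 (0.0648) and without LQ-40 3 (0.0586), and lower than in Model hearts (log2 -1.47, adjusted p = 0.00314). Tubb4b, a tubulin of microtubules, was at 72.6, 61.4 and 57.9 in LQ-40, 108, 107 and 109 in Sham and 75.5, 83 and 84 in Model hearts (1.69-fold lower than in Sham, adjusted p = 0.00597; 0.0677 in the fit of both groups alone). Vtn, the gene of the adhesive protein vitronectin, was at 11, 9.77 and 10.4 in LQ-40, 17.6, 22.2 and 19.7 in Sham and 11.1, 18.8 and 12.5 in Model hearts (1.82-fold lower than in Sham, adjusted p = 0.0134; 0.05 without Sham 2 and 0.0551 without LQ-40 2).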

How the data were processed

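Messenger RNA of mouse hearts was sequenced after trizol extraction and poly-T capture, per the labels' protocols, which describe both a NEB and a dUTP library without saying which was used. Among tools and builds, fastp, HISAT2 2.0.5, featureCounts 1.5.0-p3 and mm10 are listed in the submitters' processing notes, without roles. The annotation release and strand setting were not given in the sources used here. The authors deposited FPKM values for 54532 mouse genes. FPKM times gene length was a whole multiple of 1 step for 100.0% of values (tolerance 0.02 read), so reads per library were recovered (13085370 to 16698987 in the 12 mouse libraries). Their number limits the precision of low genes.

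Libraries were scaled by median-of-ratios factors from 10422 genes of at least 1 FPKM in every library, and log2(scaled FPKM + 1) was fitted with limma 3.58.1 (R 4.3.3, eBayes with trend) over all 12 mouse libraries, for genes of at least 1 scaled FPKM in at least 3 libraries. Adjusted p-values are Benjamini-Hochberg values over all 12996 genes, two-sided, threshold 0.05, with 10.9 degrees of freedom. Folds understate changes of low genes. Lists (47) were described by counts, with no test, and no p was adjusted over a list. Members and lists were chosen with earlier results of these data known.

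Named genes were protein-coding: the 12 largest called differences per direction without overlap and averaging at least 2 scaled FPKM in either group, up to 4 called members (by p) and 3 uncalled members (by level) of each list, 10 fixed genes, and up to 6 genes per direction with LQ-40 outside all other libraries. Not every eligible gene is printed. Promoter windows came from the RefSeq table of GRCm38.p6. There were 14 alternatives: other scaling, pseudocount, filters, samples, limma-voom on recovered reads, a replicate block, and each library left out. Figures used matplotlib 3.10.9, and tables Python 3.11.15, pandas 2.3.3 and numpy 2.4.6. The rat libraries were not analysed here. An interferon response gene is counted with its list and is not reported here by name.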

Additional observations from a re-analysis of the deposited data

How the results depend on the processing

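Genes called higher in LQ-40 than in Sham numbered 1277, and 839 with quantile normalization, 521 with no filter on low values, 798 for genes averaging at least 5 scaled FPKM and 137 with only the Sham and LQ-40 libraries. Genes called lower numbered 769, and 253 with no filter, 93 with only those libraries and 484 with a replicate block. With 1 library left out the counts ran from 269 to 2364 higher and from 143 to 2005 lower. FPKM as deposited gave 1153 higher and 1025 lower (52.9% of calls higher against 62.4%), and genes averaging at least 5 scaled FPKM gave 798 and 719 (52.6%). Of the 2046 genes called, 223 were called with only both groups, 404 without LQ-40 2 and 2018 without LQ-40 1. The counts between LQ-40 and Model and between Model and Sham stayed within 1.5 times under the other scalings tried. Same-numbered Sham and LQ-40 libraries deviated together weakly (r = 0.15, 0.08 and 0.12), each correlating best with its own number. Libraries of different number had r from -0.12 to 0.01. The labels do not state that the numbers pair libraries, so the main fit did not use them as pairs. Whether they are pairs was not tested. The fit with the replicate block called 950 higher and 484 lower, and kept 1387 of the 2046 calls. It called 1 contractile, 7 oxidative phosphorylation, 4 tricarboxylic acid cycle and 7 fatty acid genes lower, and ended the calls of Tnni3 (adjusted p = 0.0507) and Hspa5 (0.0801). Of 82 genes printed, 59 were called. All 59 kept their direction in the 14 alternatives, and 34 kept the call in each. The signs of 2 uncalled genes turned: Acta2 (0.14 with quantile normalization) and Gbp2 (0.01 without Sham 3, with a range from -0.45 to 0.01 with 1 library left out). The cause of these shifts was not tested.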
